A study of Mus musculus with 6 samples.

Results

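The genes described here are 35 genes of PI3K, Akt and mTOR signalling, chosen by name, out of the 19938 genes that the arrays name. They encode PI3K subunits, Akt with its activator, its phosphatases and kin, the subunits of the mTOR complexes, the TSC proteins and Rheb, downstream targets, and the nutrient and stress inputs. A gene was read from the probe sets that carry its symbol alone, and where there were several, from the one with the highest mean over the 6 arrays. This gave values for 34 of the 35 genes. No probe set used here carries the symbol Rps6kb1 alone, and no value is given for it. All 34 lay above the median probe set of the arrays, which had a log2 intensity of 5.99, with means between 6.36 and 11.9.

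The study set muscle carrying a SOCS-3 transgene against control muscle. Tibialis anterior, a hindlimb muscle, was taken from MLC-SOCS-3 mice on C57Bl6J (3 arrays) and from control C57Bl6J mice (3 arrays), and RNA was hybridised to Affymetrix arrays, 1 sample each. All mice of both groups were 11 weeks old and had been starved for 6 h. The labels name no sex, do not spell out the promoter behind the MLC prefix, and do not say whether the numbered replicates were separate animals, so a p-value here covers only the scatter between samples that may be technical replicates.

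PI3K is recruited to activated insulin and growth factor receptors and makes a membrane phospholipid that brings Akt to its activating kinase. Akt then holds back GSK3 and the FOXO factors and releases the brake that the TSC complex puts on Rheb, the small GTPase that switches on mTORC1. In skeletal muscle this route carries the insulin signal for glucose uptake and the signal for protein synthesis and fibre growth, and it is turned down in fasting. SOCS-3 is a feedback inhibitor of cytokine signalling that can also bind the insulin receptor and its substrates. Most of this control acts through phosphorylation, which an RNA array does not measure.

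None of the 34 genes passed the test between the MLC-SOCS-3 and the control arrays, in either direction. Their differences, MLC-SOCS-3 minus control on the log2 scale, ran from -0.28 to 0.22, with a median of 0.021, a median size of 0.045, and 20 above and 14 below 0. Over all 19938 genes the median was -0.016, and over the 11409 genes brighter than the median probe set it was 0.0011, with a median size of 0.061. In limma's moderated test with Benjamini-Hochberg adjustment over all probe sets, the adjusted p of the 34 genes ran from 0.859 to 0.995. The share called over all 35557 probe sets was 0%, the smallest adjusted p being 0.547. At an unadjusted p under 0.05 the count was 0 of 34, while 4.86% of all genes stood below it.

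The intervals give, 1 gene at a time, the differences in RMA intensity that the scatter between these samples leaves room for. For 31 of the 34 genes the 95% interval lay within a 1.5-fold difference in either direction (0.585 on the log2 scale), as it did for 10946 of the 11409 brighter genes. The exceptions were Ddit4l, Sgk1 and Ddit4, all stress-responsive. The arrays of the groups did not overlap for 1 gene that was higher on the MLC-SOCS-3 arrays, Pik3c2a (2.94% of 34, against 4.52% of all genes), and for 4 that were lower, Gsk3b, Akt1s1, Akt2 and Pik3r2 (11.8% of 34, against 7.76% of all genes). Of the 11409 brighter genes, to which all 34 belong, 687 were apart and higher and 737 apart and lower. Muscle is a mixture of cells, and in such bulk samples fewer cells of a type and less RNA per cell cannot be told apart.

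**Figure D1:**
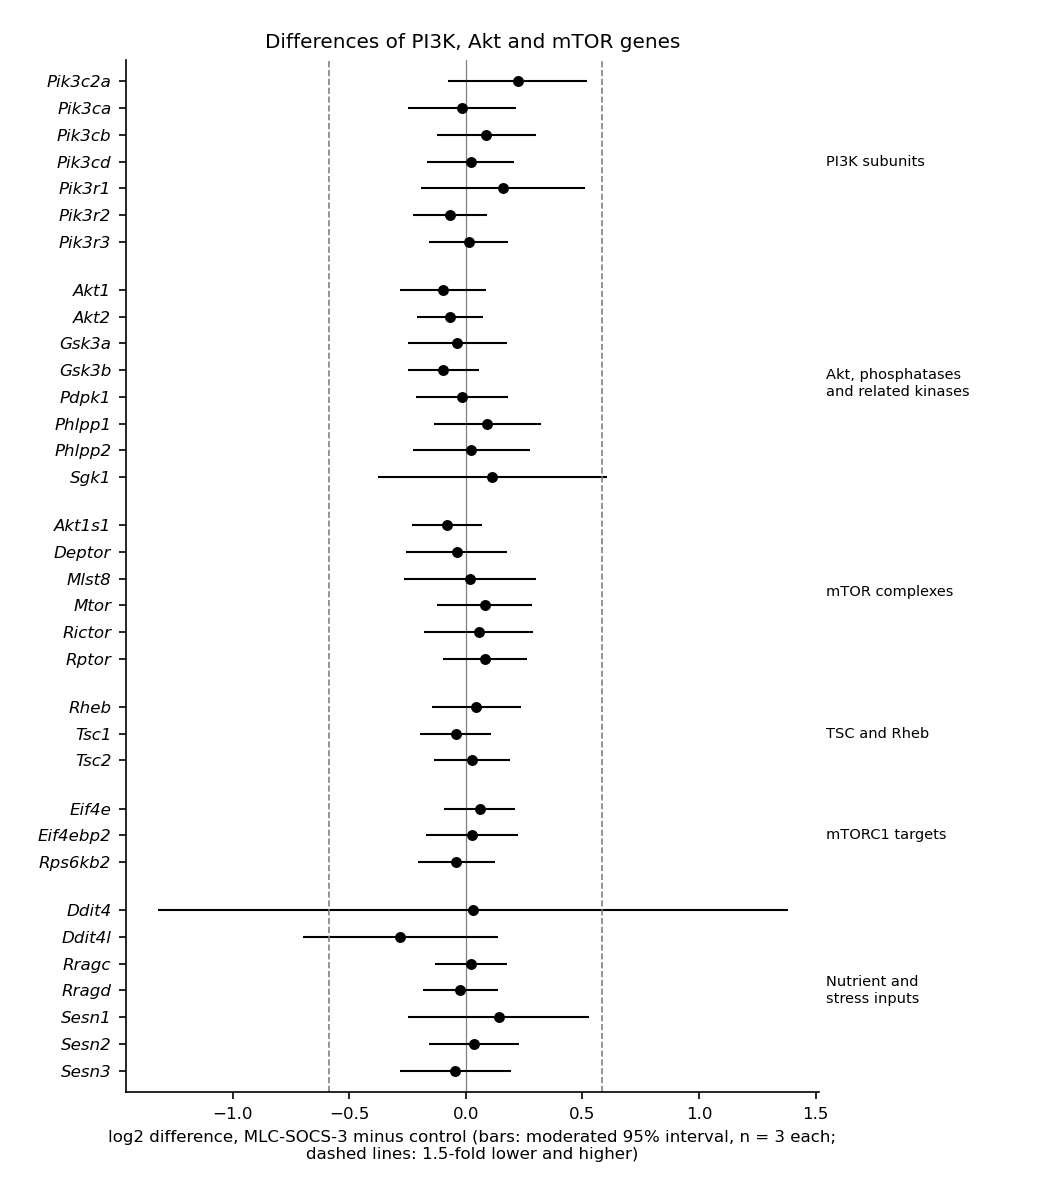
Differences of the 34 measured genes, MLC-SOCS-3 minus control on the log2 scale, with 95% intervals from limma, grouped by role. All intervals include 0, and those of Ddit4, Ddit4l and Sgk1 reach past a 1.5-fold difference.

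The arrays resembled each other in scale, with medians from 5.98 to 6.04, and all 12 skeletal muscle fibre markers lay far above the median probe set, between 12 and 14.6. Their median difference was -0.0099 (9 of 12 negative), the largest being that of Myh2 (-0.30). The 8 slow fibre markers lay between 6.22 and 9.93, with a median difference of -0.10 (7 of 8 negative). In both lists 0 genes had an unadjusted p under 0.05 in limma's test. The part of fibre type in the pathway values was not tested. The probe set of Socs3, which the transgene is named for, had lower values in the group labelled as carrying it, with 7.07, 7.12 and 7.25 on the MLC-SOCS-3 arrays, against 7.37, 7.41 and 7.43 on the control arrays, a difference of -0.26 (unadjusted p = 0.0114, adjusted p = 0.799). Whether its probes lie in the part that the transgene carries is not known here, so the value does not check the labels.

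Of the 7 PI3K subunit genes, 5 had a positive and 2 a negative difference, with a median of 0.021. Pik3c2a, the class II catalytic subunit that acts in membrane traffic and insulin signalling, had the largest positive difference of the 34 genes. It measured 7.32, 7.39 and 7.31 on the MLC-SOCS-3 arrays, against 6.86, 7.29 and 7.21 on the control arrays. The MLC-SOCS-3 values lay close together and above all controls, but control replicate 1 stood well below the other 2 controls. The difference was 0.22 (95% interval -0.076 to 0.52, adjusted p = 0.859), and without control replicate 1 it was 0.093.

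The regulatory subunits, which stabilise the catalytic subunits and bind phosphorylated receptors and adaptors, did not move together. Pik3r1, the main regulatory subunit gene in muscle, had 8.44, 8.65 and 8.32 on the MLC-SOCS-3 arrays, against 8.18, 8.57 and 8.17 on the control arrays. Replicate 2 was the highest array in both groups, so the groups overlapped, and the difference of 0.16 had an interval from -0.19 to 0.51. Pik3r2 had 7.73, 7.62 and 7.74 on the MLC-SOCS-3 arrays and 7.76, 7.75 and 7.79 on the control arrays. These groups were separated only by the gap between 7.74 and 7.75, and the difference was -0.069 (SE 0.065). Pik3r3 had a difference of 0.012.

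The class I catalytic subunits carry the lipid kinase activity. Pik3ca, which insulin signalling relies on, had 9.53, 9.57 and 9.71 on the MLC-SOCS-3 arrays, against 9.77, 9.51 and 9.59 on the control arrays (difference -0.016, 95% interval -0.25 to 0.22). Pik3cb had 8.59, 8.40 and 8.44 on the MLC-SOCS-3 arrays, against 8.49, 8.29 and 8.38 on the control arrays (difference 0.088, SE 0.087). In both genes the ranges of the groups overlapped. Pik3cd, the form best known from white blood cells, had a difference of 0.021.

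**Figure D2:**
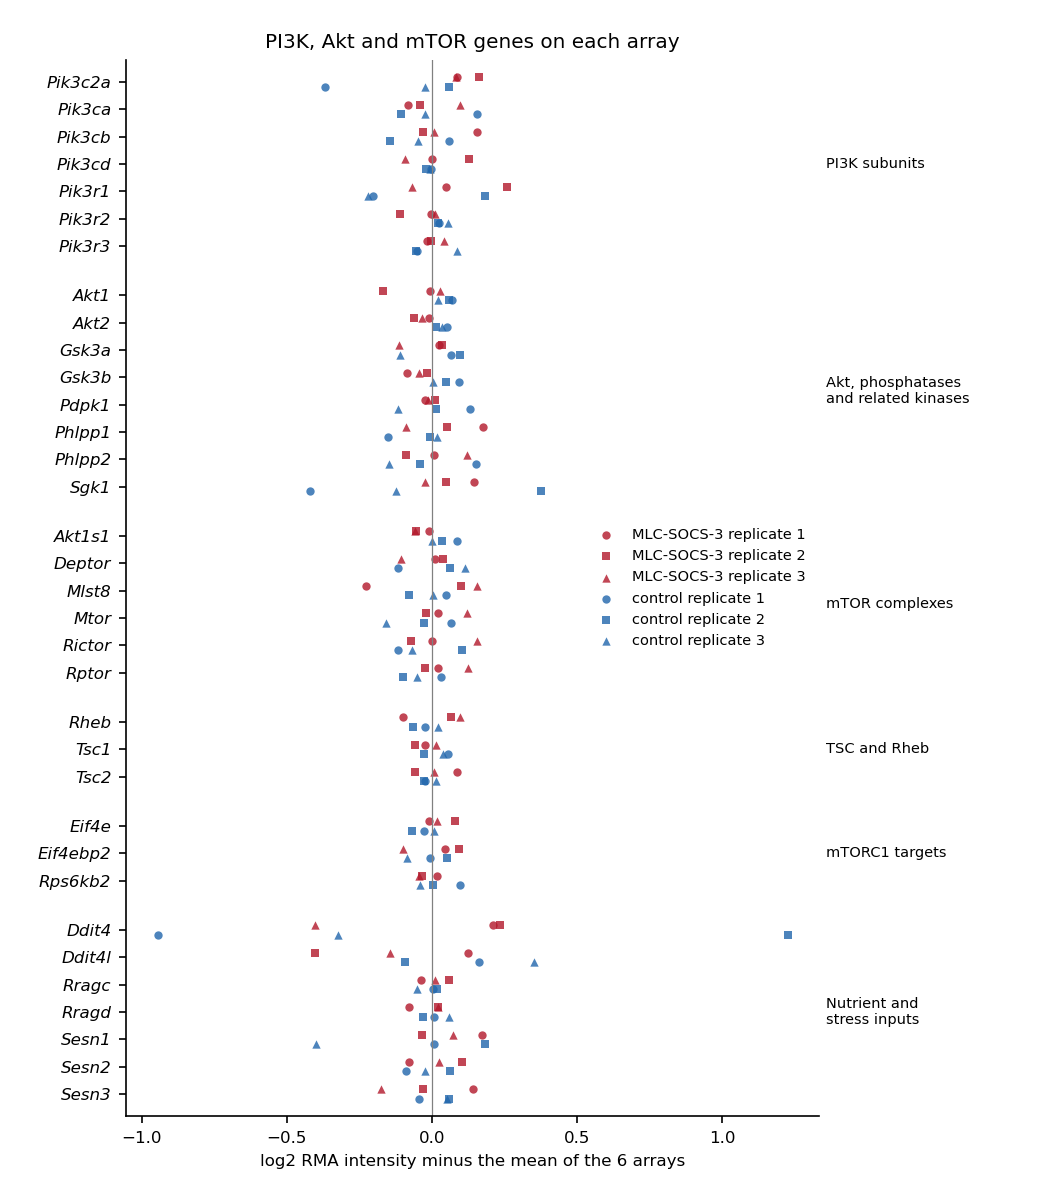
Values of the 34 genes on each array, as log2 intensity minus the gene's mean over the 6 arrays, with the 3 MLC-SOCS-3 arrays in one colour and the 3 control arrays in the other. The points of most genes lie close to 0 and intermingle, and Ddit4 has by far the widest scatter, led by control replicate 2.

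Among the 8 genes of the Akt group, 3 differences were positive and 5 negative, with a median of -0.026. Akt1, the Akt gene tied to growth, had 9.53, 9.37 and 9.56 on the MLC-SOCS-3 arrays, against 9.60, 9.59 and 9.55 on the control arrays. MLC-SOCS-3 replicate 2 was the lowest array, replicate 1 also lay below all controls, and replicate 3 lay within their range. The difference of -0.099 (95% interval -0.28 to 0.085) had an adjusted p of 0.869.

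Akt2, the Akt gene needed for insulin-driven glucose uptake, has 2 probe sets. The brightest had 11.935, 11.883 and 11.911 on the MLC-SOCS-3 arrays, against 11.996, 11.957 and 11.978 on the control arrays. The groups did not overlap, yet the difference was only -0.068 (95% interval -0.21 to 0.075, adjusted p = 0.878). The second probe set had 11.68, 11.49 and 11.52 on the MLC-SOCS-3 arrays, against 11.59, 11.52 and 11.60 on the control arrays. There the groups overlapped, with a difference of -0.0075 (adjusted p = 0.992).

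These 2 probe sets differ in where their neighbours lie. Probe set numbers on this array run along the chromosomes, and for 35 of 37 probe sets of the pathway genes at least 17 of the 20 nearest numbers with a named gene fell on the gene's own chromosome. The exceptions were the brightest probe sets of Akt2, a gene of chromosome 7 (19 of 20 neighbours on chromosome 11), and of Eif4e, a gene of chromosome 3 (19 of 20 neighbours on chromosome X). The second Akt2 probe set had 20 of 20 neighbours on chromosome 7. Whether the brightest ones read another copy of the sequence was not tested.

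Downstream and around Akt, Gsk3b, one of the genes of the kinase that restrains glycogen synthesis, had 9.40, 9.47 and 9.44 on the MLC-SOCS-3 arrays, against 9.58, 9.53 and 9.49 on the control arrays. All 3 MLC-SOCS-3 arrays were lower than all 3 controls, and the difference was -0.097 (95% interval -0.25 to 0.054, adjusted p = 0.863). Its relative Gsk3a had -0.036, with overlapping groups. Phlpp1, a phosphatase that switches Akt off, had 7.49, 7.37 and 7.23 on the MLC-SOCS-3 arrays, against 7.17, 7.31 and 7.34 on the control arrays (difference 0.093, SE 0.094). Its values were mixed between the groups. Phlpp2 (0.024) and Pdpk1, the kinase that activates Akt (-0.017), had small differences.

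The 6 mTOR complex genes had differences from -0.081 to 0.082, with 4 positive. Mtor, the kinase itself, had 8.91, 8.86 and 9.01 on the MLC-SOCS-3 arrays, against 8.95, 8.86 and 8.73 on the control arrays (difference 0.081, 95% interval -0.12 to 0.29). Rptor, which defines mTORC1 and presents its substrates, had 8.52, 8.47 and 8.62 on the MLC-SOCS-3 arrays, against 8.53, 8.40 and 8.45 on the control arrays (0.082, -0.099 to 0.26). Rictor, which defines the second complex, the one that phosphorylates Akt, had 7.70, 7.63 and 7.86 on the MLC-SOCS-3 arrays, against 7.59, 7.81 and 7.64 on the control arrays (0.055, -0.18 to 0.29). In each of these the groups overlapped, and MLC-SOCS-3 replicate 3 was the highest array, as it also was for Mlst8, the subunit that both complexes share. That array was the highest for 4 of the 6 complex genes and for 1965 of the 11409 brighter genes.

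The inhibitory subunits lay slightly below 0. Akt1s1, an inhibitor of mTORC1 that Akt inactivates, had 10.34, 10.30 and 10.29 on the MLC-SOCS-3 arrays, against 10.44, 10.39 and 10.35 on the control arrays. The groups were apart by a narrow gap, 10.34 against 10.35, and the difference was -0.081 (SE 0.061, adjusted p = 0.867). Deptor, which binds and inhibits mTOR in both complexes, had 8.67, 8.69 and 8.55 on the MLC-SOCS-3 arrays, against 8.54, 8.72 and 8.77 on the control arrays (difference -0.040). Its ranges overlapped almost wholly.

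Tsc1 and Tsc2, which together keep Rheb inactive, had differences of -0.044 and 0.025, and Rheb had 0.044, all with overlapping groups and an interval within a 1.5-fold difference. Among the downstream targets, Eif4ebp2, a repressor of cap-dependent translation, had 9.32, 9.37 and 9.18 on the MLC-SOCS-3 arrays, against 9.27, 9.33 and 9.19 on the control arrays (difference 0.026, 95% interval -0.17 to 0.22). In both groups replicate 3 was the lowest array. Rps6kb2, one of the kinase genes for the small ribosomal subunit protein that mTORC1 drives, had -0.041.

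Eif4e, the cap-binding protein that the repressors hold, gave different pictures by probe set. Its brightest probe set, the one whose neighbours lie on chromosome X, had 10.55, 10.64 and 10.58 on the MLC-SOCS-3 arrays, against 10.53, 10.49 and 10.57 on the control arrays (difference 0.059, adjusted p = 0.902). These groups overlapped. The second had 8.64, 8.63 and 8.59 on the MLC-SOCS-3 arrays, against 8.48, 8.42 and 8.51 on the control arrays (difference 0.15, SE 0.062, unadjusted p = 0.0518, adjusted p = 0.831). The third had 6.62, 6.62 and 6.76 on the MLC-SOCS-3 arrays, against 6.58, 6.52 and 6.55 on the control arrays (difference 0.12, SE 0.068, adjusted p = 0.863). In both of these, whose 20 nearest named neighbours all lie on chromosome 3, every MLC-SOCS-3 array was above every control array, without passing the test. Akt2 and Eif4e were also read from their second probe sets, a choice made after these values were seen. Of the 34 genes, the groups were then apart for 2 higher on the MLC-SOCS-3 arrays and 3 lower. Over all genes, each read from its brightest probe set, the shares apart were 4.52% higher and 7.76% lower.

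**Figure D3:**
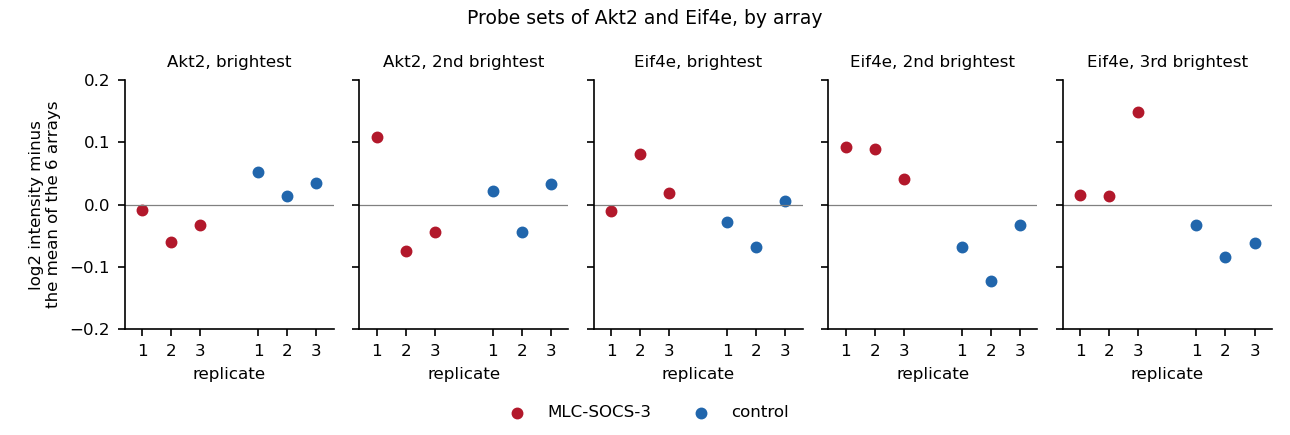
Each probe set of Akt2 and Eif4e on the 6 arrays, as log2 intensity minus the mean of the 6 arrays, MLC-SOCS-3 arrays left of control arrays in each panel. The groups are apart on the brightest probe set of Akt2 and on the dimmer 2 of Eif4e, and overlap on the others.

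The 7 nutrient and stress input genes had a median difference of 0.021, and Ddit4 among them had the widest interval of the 34 genes. Ddit4, a stress-induced inhibitor of mTORC1 that acts through the TSC complex and is a known glucocorticoid target in muscle, had 9.23, 9.26 and 8.62 on the MLC-SOCS-3 arrays, against 8.08, 10.25 and 8.70 on the control arrays. The highest and the lowest array were both controls, and the MLC-SOCS-3 arrays lay between them. The MLC-SOCS-3 arrays spanned a 1.55-fold range and the controls a 4.5-fold range, with an SD of 0.36 on the MLC-SOCS-3 arrays and 1.12 on the control arrays (n = 3 each). The difference of 0.029 therefore had an interval from -1.32 to 1.38. It was 0.65 without control replicate 2 and -0.44 without control replicate 1, and passed the test in neither case (adjusted p = 0.892 and 0.979).

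Sgk1, a kinase related to Akt that glucocorticoids also induce, showed the same extremes among the controls. It had 10.82, 10.72 and 10.65 on the MLC-SOCS-3 arrays, against 10.25, 11.05 and 10.55 on the control arrays. Control replicate 2 was again the highest and control replicate 1 the lowest, and the difference was 0.11 (95% interval -0.38 to 0.60). Without control replicate 2 it was 0.33, with an unadjusted p of 0.0401 and an adjusted p of 0.888.

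The sestrins are stress-induced inhibitors of mTORC1, and Sesn1 is also a known FOXO target. Sesn1 had 9.22, 9.02 and 9.12 on the MLC-SOCS-3 arrays, against 9.06, 9.24 and 8.65 on the control arrays (difference 0.14, 95% interval -0.25 to 0.53). Control replicate 3 was the low array, and without it the difference was -0.025. Sesn2, the leucine sensor, had 6.29, 6.47 and 6.39 on the MLC-SOCS-3 arrays, against 6.27, 6.42 and 6.34 on the control arrays (0.034). Sesn3 had 7.80, 7.62 and 7.48 on the MLC-SOCS-3 arrays, against 7.61, 7.71 and 7.71 on the control arrays (-0.045). Neither separated the groups.

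Ddit4l, a relative of Ddit4 that also inhibits mTORC1, had the largest negative difference of the 34 genes. It had 11.63, 11.10 and 11.36 on the MLC-SOCS-3 arrays, against 11.67, 11.41 and 11.86 on the control arrays. The groups overlapped, since MLC-SOCS-3 replicate 1 exceeded control replicate 2, and the difference was -0.28 (95% interval -0.70 to 0.14, adjusted p = 0.863). Leaving out single arrays moved it between -0.15 without MLC-SOCS-3 replicate 2 and -0.41 without MLC-SOCS-3 replicate 1. Rragc (0.021) and Rragd (-0.024), GTPases that bring mTORC1 to the lysosome, had narrow intervals.

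The promoters of the 3 most variable stress genes on which glucocorticoid or FOXO control is known are shown because their spread stands out. They are RefSeq sequences on GRCm38.p6, 300 bases around a listed start, 5′ to 3′ on the gene's strand. Capitals mark matches, on either strand, to CCAAT (in 37.4% of all 32851 promoter windows of this length), the FOXO letters GTAAACA (3.65%), the E-box CACGTG (7.15%) and the glucocorticoid receptor palindrome GNACANNNTGTNC (0.475%). The windows are Ddit4 at chr10:59951721-59952020 (minus strand), Sesn1 at chr10:41810324-41810623 (plus strand, 1 of 2 listed windows) and Sgk1 at chr10:21993640-21993939 (plus strand, 1 of 6 listed windows). Where a gene had several windows, one with the palindrome was shown first, then the one with most matches. The Sgk1 window was thus chosen for its palindrome, which the other Sgk1 windows and the Ddit4 window lack.
Ddit4: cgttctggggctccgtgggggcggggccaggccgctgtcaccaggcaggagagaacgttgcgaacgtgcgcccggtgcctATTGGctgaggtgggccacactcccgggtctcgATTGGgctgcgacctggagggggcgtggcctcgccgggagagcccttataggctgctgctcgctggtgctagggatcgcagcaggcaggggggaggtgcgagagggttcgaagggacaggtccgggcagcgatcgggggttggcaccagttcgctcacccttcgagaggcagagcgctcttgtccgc
Sesn1: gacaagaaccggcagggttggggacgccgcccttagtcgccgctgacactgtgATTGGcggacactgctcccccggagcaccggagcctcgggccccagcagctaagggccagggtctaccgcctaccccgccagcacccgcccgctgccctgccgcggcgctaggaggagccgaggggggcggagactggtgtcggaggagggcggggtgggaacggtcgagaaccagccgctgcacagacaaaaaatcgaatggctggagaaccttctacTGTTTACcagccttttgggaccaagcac
Sgk1: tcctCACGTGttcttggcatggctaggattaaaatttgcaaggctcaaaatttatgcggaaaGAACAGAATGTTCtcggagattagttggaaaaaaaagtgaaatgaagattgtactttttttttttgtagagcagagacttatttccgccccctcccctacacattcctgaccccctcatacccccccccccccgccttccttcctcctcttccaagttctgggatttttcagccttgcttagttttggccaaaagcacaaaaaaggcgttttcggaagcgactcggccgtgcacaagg

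The Ddit4 window holds the CCAAT letters at 2 places, the Sesn1 window a CCAAT and a FOXO match, and the Sgk1 window an E-box and a palindrome match. Of the 34 genes, 32 have windows in the table, 49 in all. The palindrome letters were found in 1 of the 49 windows, of Sgk1, and the FOXO letters in 2, of Akt1 and Sesn1. The STAT letters TTCNNNGAA were found in 5 of the 49 windows, of Akt2, Eif4e, Mtor, Pdpk1 and Sgk1, near their share of 8.3% over all windows. A match is a run of letters and not a measured site.

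Spread within groups was much as in other genes, with a median pooled SD of 0.0876 over the 34 genes and 0.0891 over the brighter genes. Of the 34, 5 lay above the 90th percentile of the brighter genes, a cut that 1141 of those 11409 genes pass by definition. These were Ddit4 at percentile 99.9, Sgk1 at 98.1, Ddit4l at 96.6, Sesn1 at 95.5 and Pik3r1 at 93.2. At the other end, the brightest Akt2 probe set lay at percentile 1.63. Over all 34 genes, the SD was higher in the controls for 17. Among the 5 most variable it was higher in the controls for Ddit4 (1.12 against 0.36), Sgk1 (0.40 against 0.085), Sesn1 (0.30 against 0.10) and Pik3r1 (0.23 against 0.17). For Ddit4l it was lower in the controls (0.22 against 0.26).

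**Figure D4:**
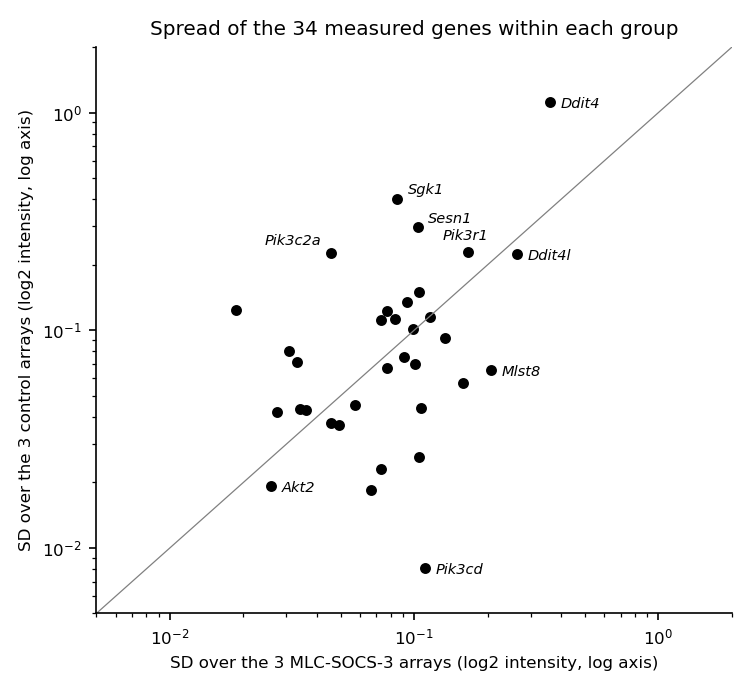
Within-group SD of each of the 34 genes on the log2 scale, MLC-SOCS-3 arrays on one axis and control arrays on the other, with the line of equal SD. Ddit4 stands apart with an SD of 0.36 on the MLC-SOCS-3 arrays and 1.12 on the control arrays.

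Several gene lists outside the pathway had most or many of their genes highest on control replicate 2, the array that was highest for Ddit4 and Sgk1. Of 11 known glucocorticoid receptor targets, 9 (81.8%) were highest on control replicate 2, as were 13 of 16 immediate-early genes (81.2%), 4 of the 34 pathway genes (11.8%, namely Ddit4, Sgk1, Sesn1 and Gsk3a) and 12.9% of the brighter genes. Among the other lists, the array was the highest for 4 of 7 satellite cell markers (57.1%), 5 of 10 macrophage markers (50%) and 3 of 8 p53 targets (37.5%). The mean of the glucocorticoid targets, relative to each gene's mean over 6 arrays, was 0.036, 0.098 and -0.034 on the MLC-SOCS-3 arrays, against -0.28, 0.44 and -0.26 on the control arrays. The immediate-early genes had -0.26, -0.11 and -0.0062 on the MLC-SOCS-3 arrays, against -0.037, 0.57 and -0.15 on the control arrays. Of the 11 glucocorticoid targets, 0 passed limma's test at the adjusted or the unadjusted threshold, and the median difference was -0.010. Fkbp5, a classical glucocorticoid target, had 9.27, 9.03 and 9.06 on the MLC-SOCS-3 arrays, against 8.56, 9.62 and 8.63 on the control arrays, the order also seen in Ddit4 for the controls at both ends. Pdk4, with the smallest p of that list, had another order, with 13.58, 13.53 and 13.67 on the MLC-SOCS-3 arrays, against 13.45, 13.51 and 13.34 on the control arrays. The part of these lists in the Ddit4 and Sgk1 values was not tested.

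**Figure D5:**
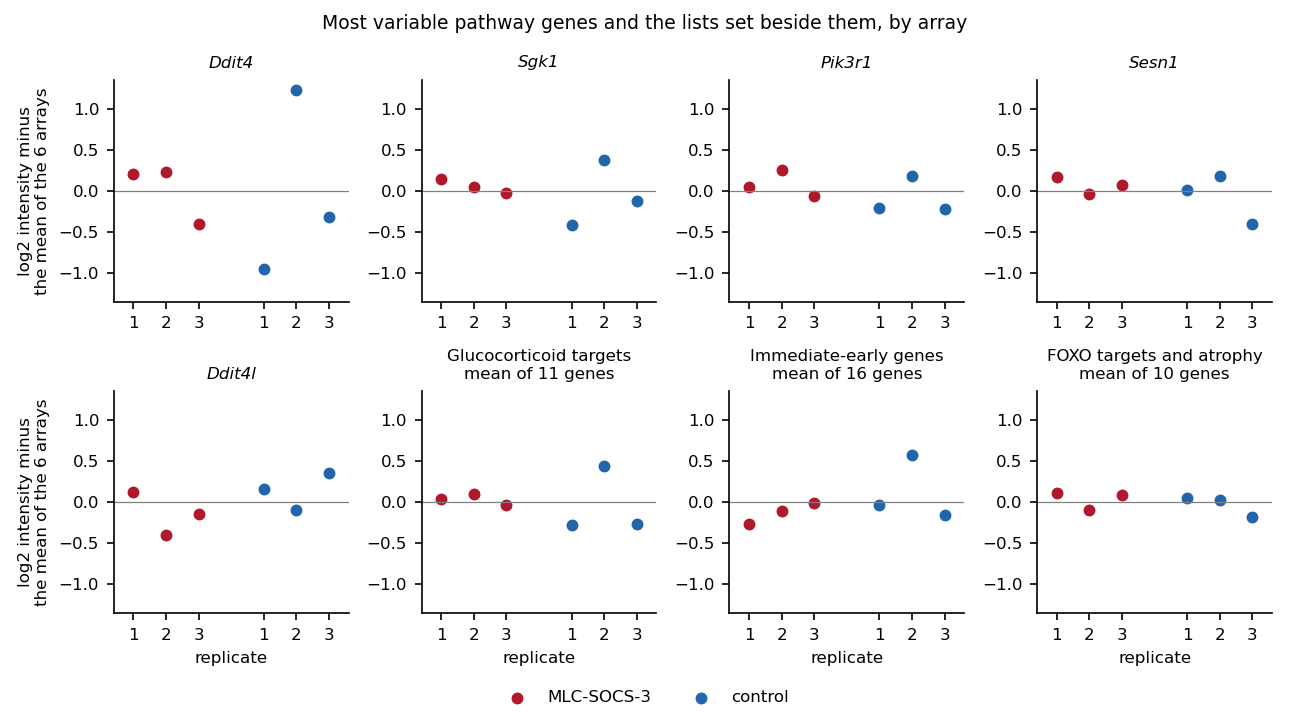
The 5 pathway genes with the widest spread and the means of 3 gene lists on each array, as log2 intensity minus the mean of the 6 arrays, MLC-SOCS-3 arrays left of control arrays. Control replicate 2 is the highest array for Ddit4, Sgk1, Sesn1, the glucocorticoid targets and the immediate-early genes.

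The wider pathway gave the same count of calls. Of 86 further listed genes, from receptors and adaptors to amino acid sensing and translation, 82 were measured, 0 passed limma's adjusted test, and the median difference was 0.014. At an unadjusted p under 0.05 there was 1 gene higher and 1 lower, out of 82 (all genes 4.86%). The groups were apart for 2 higher (2.44%) and 5 lower (6.1%). For 76 of the 82 the interval lay within a 1.5-fold difference.

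Both genes below that unadjusted threshold encode transcription factors that Akt and mTORC1 control. Srebf1, the factor of lipid synthesis, had 8.42, 8.29 and 8.06 on the MLC-SOCS-3 arrays, against 8.64, 8.64 and 8.64 on the control arrays. The controls were nearly equal and all MLC-SOCS-3 arrays lay below them, with a difference of -0.38 (95% interval -0.63 to -0.13, unadjusted p = 0.0097, adjusted p = 0.796). Hif1a, the factor of the hypoxia response, had 8.28, 8.33 and 8.37 on the MLC-SOCS-3 arrays, against 8.11, 8.25 and 8.07 on the control arrays (difference 0.18, unadjusted p = 0.0493, adjusted p = 0.831). Ppargc1a, the coactivator of mitochondrial genes, had 9.50, 9.50 and 10.41 on the MLC-SOCS-3 arrays, against 9.55, 9.34 and 9.15 on the control arrays, a difference of 0.46 (-0.19 to 1.11) led by MLC-SOCS-3 replicate 3.

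Upstream of PI3K, Insr, the insulin receptor gene, had 10.53, 10.51 and 10.61 on the MLC-SOCS-3 arrays, against 10.51, 10.44 and 10.41 on the control arrays (difference 0.097, adjusted p = 0.864). Grb10, an adaptor that inhibits that receptor, had a difference of 0.15, and the receptor substrates Irs1 and Irs2 had -0.18 each, all with overlapping groups. Over the 82 wider pathway genes, 14 (17.1%) were highest on control replicate 2, against 15.5% of all genes. Irs2 (8.59), Foxo1 (8.69) and Eif4ebp1 (9.82) were among these 14. Trib3, a pseudokinase that binds Akt, was lower on all 3 MLC-SOCS-3 arrays, with 6.72, 6.52 and 6.68, against 6.95, 6.79 and 6.80 on the control arrays (difference -0.21, unadjusted p = 0.0516, adjusted p = 0.831).

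In the other lists, Prr5, a subunit of the complex with Rictor, had a difference of -0.15 and Lamtor4, of the lysosomal anchor of mTORC1, had -0.11. Both had groups that did not overlap, as did Pik3r6, a regulatory subunit (-0.11). Castor1, the arginine sensor, had 0.21, and Slc7a5, a carrier of large neutral amino acids, had 0.15. Eef2k, the kinase that slows translation elongation, had -0.11. Groups overlapped for these 3, and none of the 6 passed the test.

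Markers of other cell types were present in the samples. All 9 connective tissue markers and 8 of 10 macrophage markers lay above the median probe set, as did 4 of 7 adipocyte, 2 of 8 lymphocyte, 8 of 8 endothelial, 3 of 5 Schwann cell and 7 of 7 satellite cell markers. Their median differences were 0.16 for connective tissue (8 of 9 positive), 0.092 for macrophages (8 of 10 positive) and 0.17 for adipocytes (6 of 7 positive). They were -0.13 for lymphocytes (5 of 8 negative), -0.017 for endothelium (5 of 8 negative), -0.086 for Schwann cells (5 of 5 negative) and -0.065 for satellite cells (5 of 7 negative). In these lists 0 genes passed limma's adjusted test. At an unadjusted p under 0.05 (all genes 4.86%) there were 0 connective tissue, endothelial or Schwann cell genes. Higher were 1 macrophage gene (Itgam, 0.57) and 1 adipocyte gene (Adipoq, 0.64). Lower were 2 lymphocyte genes (Cd3g, -0.30, and Gzmb, -0.21) and 1 satellite cell gene (Myod1, -0.48). All of these but Myod1 were dimmer than the median probe set. Their part in the values of the pathway genes was not tested.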

How the data were processed

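The deposited table holds log2 intensities, 1 per probe set and array, which the authors produced, per the submitters' processing notes, by RMA with Affymetrix Expression Console (version and genome build: not given in the sources used). RMA compresses the folds of dim and very bright genes. Values were used as deposited. There are no counts or detection calls, so the number of arrays limits the precision. Of 35557 probe sets, 23410 are in the platform annotation, which can be old: 21789 with 1 symbol, 1621 with several (not used for names) and 12147 unlisted. For 21698 of those with 1 symbol, the Entrez identifier was found among RefSeq genes, which gave the symbol used, changed or not. There were 999 genes with several probe sets.

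MLC-SOCS-3 arrays were compared with control arrays in limma 3.58.1 (R 4.3.3, lmFit and eBayes, two-sided), with Benjamini-Hochberg adjustment over all 35557 probe sets and a threshold of 0.05. The fit was tested on simulated data. The pathway genes and gene lists were chosen with earlier results of these data known. Values by array are given for the 12 pathway genes with the smallest p and for a fixed set of central genes, and for up to 3 genes of each wider list by smallest p. Others were chosen after their values were seen. Alternatives were other scalings, filters, probe sets and moderation, a replicate block and leaving out each array. Promoters were matched by symbol.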

Additional observations from a re-analysis of the deposited data

How the results depend on the processing

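No pathway gene passed the adjusted test under any of the alternatives run: over 481 values the lowest adjusted p was 0.747, for Ddit4l without MLC-SOCS-3 replicate 1. The sign of the difference held in every alternative for 16 of the 34 genes and turned in at least 1 for the other 18, of which the largest reported difference was 0.14 (Sesn1). With each array centred on its median, the median over the pathway genes was 0.041 and that over all genes 0.0035, against 0.021 and -0.016 as deposited. Without variance moderation, 3 pathway genes had an unadjusted p under 0.05 (Akt2 0.0223, Gsk3b 0.0386 and Akt1s1 0.0492), against 0 with it. The Akt2 value is from its brightest probe set, whose neighbours lie on chromosome 11. Shares of all genes with such a p, or with groups apart, are not given for the alternatives, so these counts cannot be set against them. Leaving out 1 array at a time gave 0 to 1 such genes, a median of -0.012 to 0.022, and 5 to 10 genes whose groups did not overlap, a count that fewer arrays raise by construction. In the wider pathway, 2 genes had an unadjusted p under 0.05, against 1 after quantile normalization, 4 on probe sets above the median, 5 without moderation, and 1 to 5 without single arrays. The titles number the replicates of both groups 1 to 3, but the deviations of same-numbered arrays correlated at -0.026, -0.018 and -0.043, so the numbers were not taken as pairs. With the replicate block 0 pathway genes had an unadjusted p under 0.05, and 1 gene of the wider pathway did. With 3 arrays a group, the intervals of Ddit4, Sgk1 and Ddit4l reach beyond a 1.5-fold difference.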

Other observations

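Lists of genes under transcription factors that feed into the pathway were measured as well. Of 10 FOXO targets and atrophy genes, 0 passed limma's adjusted test and 0 had an unadjusted p under 0.05, and the median difference was 0.054. Their mean, relative to each gene's mean over 6 arrays, was 0.11, -0.10 and 0.092 on the MLC-SOCS-3 arrays, against 0.047, 0.026 and -0.18 on the control arrays. Control replicate 3 was lowest for this mean and for 4 of the 10 genes, and MLC-SOCS-3 replicate 2 was lowest for 3. Control replicate 3 was also lowest for the means of the ATF4 targets and of the transcription and autophagy factors that Akt and mTORC1 control (-0.11 each). It was the lowest array for Sesn1 too, and a link to these lists was not tested. Of 11 ATF4 targets, whose factor serves the amino acid response, 0 passed at either threshold and the median was 0.011. Chac1, a glutathione-degrading enzyme on that list, had 10.27, 9.54 and 9.49 on the MLC-SOCS-3 arrays, against 10.14, 10.56 and 10.17 on the control arrays (difference -0.52, 95% interval -1.10 to 0.057, adjusted p = 0.831). Of 8 p53 targets, 0 passed the adjusted test and 1 had an unadjusted p under 0.05 (all genes 4.86%), with a median of -0.011. That gene, Plk3, a stress-responsive kinase, was lower on all 3 MLC-SOCS-3 arrays, with 5.99, 5.86 and 6.14, against 6.27, 6.604 and 6.37 on the control arrays (difference -0.42, unadjusted p = 0.0118, adjusted p = 0.799).

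The immediate-early genes had a median difference of -0.25 over 16 genes. Of these, 0 passed the adjusted test and 2 had an unadjusted p under 0.05 (all genes 4.86%). Dusp1, a phosphatase of MAP kinases induced by many stimuli, had 10.75, 11.08 and 10.83 on the MLC-SOCS-3 arrays, against 11.36, 12.12 and 11.60 on the control arrays (difference -0.81, unadjusted p = 0.0078, adjusted p = 0.796). Nr4a1, an orphan nuclear receptor induced by contraction, had 11.80, 11.86 and 11.61 on the MLC-SOCS-3 arrays, against 12.01, 12.46 and 12.13 on the control arrays (difference -0.44, adjusted p = 0.808). In both, all MLC-SOCS-3 arrays lay below all control arrays, as in 4 of the 16 genes in all and in 7.76% of all genes.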
